A study of Mus musculus with 8 samples.

Results

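The 10 genes described here encode proteins of the basement membrane and of type VI collagen: the type IV collagen chains Col4a1 and Col4a2, the laminin chains Lama4 and Lamc1, the nidogens Nid1 and Nid2, the perlecan core protein Hspg2, and the type VI collagen chains Col6a1, Col6a2 and Col6a3. They were chosen by name, as 7 basement membrane genes and 3 type VI collagen genes, out of 26746 genes and unnamed transcripts tested, and 13 array probes carried their RefSeq accessions. RNA came from 3T3-L1 cells, a mouse preadipocyte line that forms fat cells under hormones. The sh8 line stably carries the short hairpin shRNA-8 against the long noncoding RNA slincRAD, and the WT line is unmodified. Both lines grew in 10% newborn calf serum and were harvested at days -2, 0, +2 and +4, where day 0 is confluence, when the hormone mixture was given (isobutylmethylxanthine at 0.5 mM, dexamethasone at 1 µM and insulin at 167 nM). The 8 groups are therefore sh8 and WT at each of the 4 days, with 1 array for each, and no line with a control hairpin was among them. The sh8 cells stand for a single hairpin, and slincRAD itself was not analysed here.

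Basement membranes are thin sheets of matrix beneath epithelia and around muscle, nerve and fat cells. Laminin trimers, built from an alpha, a beta and a gamma chain, assemble at the cell surface, type IV collagen forms a second network, and nidogens and the heparan sulphate proteoglycan perlecan bind both networks. Type VI collagen lies between this sheet and the interstitial matrix as beaded filaments, each built from an alpha 1, an alpha 2 and an alpha 3 chain. In adipose tissue each fat cell is wrapped in a basement membrane, and type VI collagen is abundant around it.

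Arrays differed in brightness, with a 75th percentile of 760 at the lowest (sh8, day +4) and 1239 at the highest (WT, day -2). The share of probes well above background lay between 64.9% and 81.7%, no spot (0) was saturated, and precision is limited by having 8 arrays. Every level below is the log2 processed intensity minus the 75th percentile of its own array, so a gene at that percentile has a level of 0, and a difference of 1 is 2-fold. With 1 array per line and day, the error comes from what line and day leave unexplained for a gene over the 8 arrays. All line and day differences of a gene share this residual spread, which limma moderates with that of all genes. Nothing in the labels says that arrays came from separate cultures, so this spread may be partly technical. The file headers give 1 scan for the 4 arrays of days -2 and 0 and another for those of days +2 and +4. Day +2 against day 0 and the change of scan therefore cannot be told apart. All 14 measured preadipocyte and fibroblast markers were well above background on every array, and of 16 fat cell markers 11 or 12 were above it on the first scan and all 16 on the second.

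By limma with Benjamini-Hochberg adjustment, 5 of the 10 basement membrane and type VI collagen genes were higher in sh8 than in WT cells (Col4a1, Col4a2, Lamc1, Hspg2 and Col6a3), 1 was lower (Nid2), and 4 did not pass an adjusted p of 0.05 (Lama4, Nid1, Col6a1 and Col6a2). Of all genes tested, 16.7% were higher and 10.2% lower, 26.8% in either direction. Without adjustment, 8 of the 10 and 43.7% of all genes had a p under 0.05. The median difference of the 10 genes was 0.63 on the log2 scale, and that of all genes was 0.14. The split of all calls depended on scaling: 62.0% of the genes called were higher with the scaling used here, 50.8% with quantile scaling, 51.0% with the authors' values, and 73.4% with the percentile taken over probes above background on all arrays. The 10 genes kept the sign of their line difference under each of these scalings. All 13 probes were well above background on all 8 arrays.

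**Figure D1:**
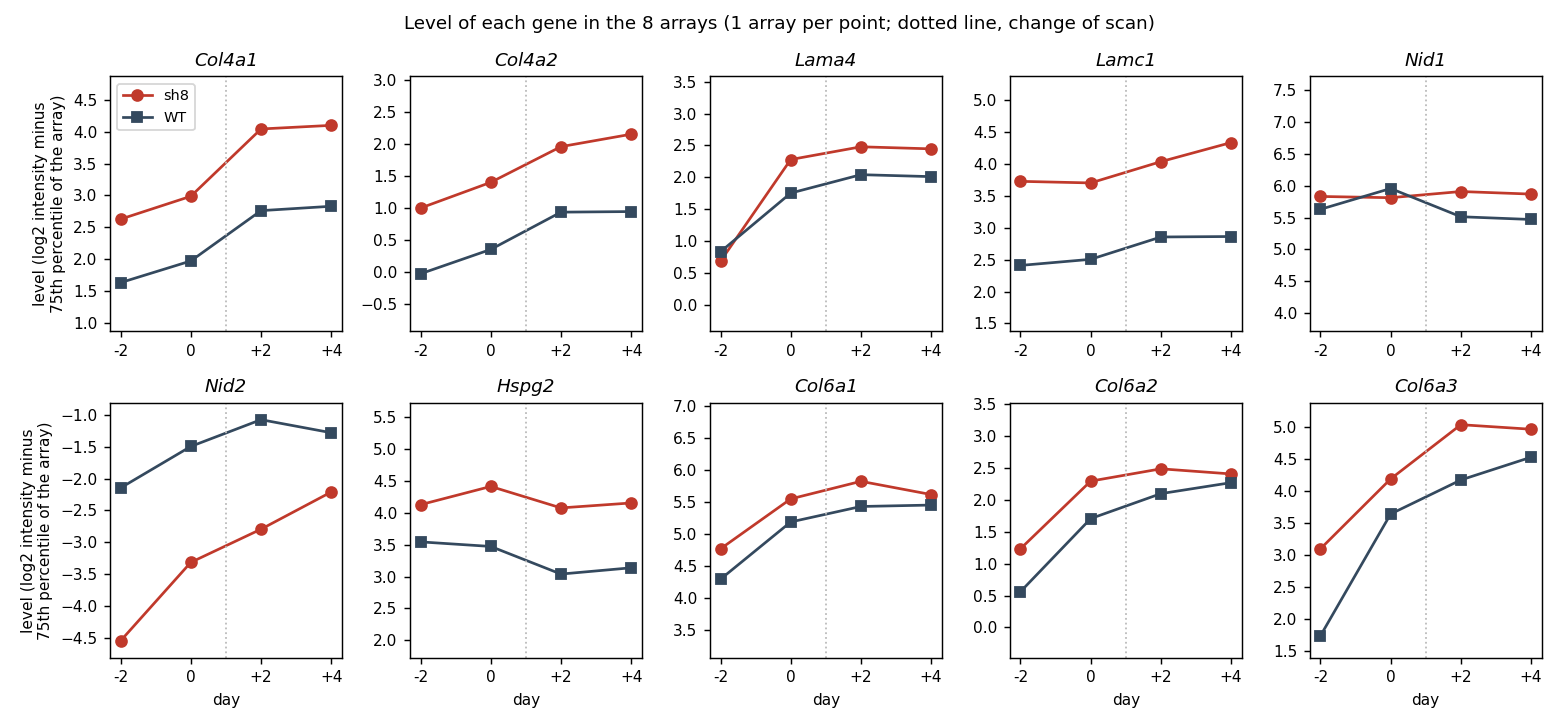
Level of each of the 10 genes on the 8 arrays, as log2 intensity minus the 75th percentile of the array, against day, with sh8 in red circles and WT in dark squares, 1 array per point. All panels span the same number of log2 units around their own centre, and the dotted line marks the change of scan. Col4a1, Col4a2, Lamc1 and Hspg2 lie higher in sh8 on every day, Nid2 lies lower in sh8 on every day, and the 3 type VI collagen chains have their lowest value at day -2 in both lines.

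Col4a1 and Col4a2 encode the alpha 1 and alpha 2 chains that together form the common type IV collagen of basement membranes. At days -2, 0, +2 and +4 the Col4a1 level was 2.63, 2.99, 4.04 and 4.10 in sh8 cells, against 1.63, 1.97, 2.76 and 2.83 in WT cells. The Col4a2 level was 1.00, 1.40, 1.96 and 2.16 in sh8 cells, against -0.03, 0.35, 0.93 and 0.94 in WT cells. Each sh8 array lay above the WT array of its day for both genes. The lowest sh8 array of Col4a2 lay above its highest WT array, whereas those of Col4a1 overlapped. Col4a1 was 2.20-fold higher in sh8 (log2 difference 1.14 ± 0.10 SE, adjusted p = 0.0104), with differences on single days from 1.00 to 1.28. Col4a2 was 2.12-fold higher (1.08 ± 0.09 SE, adjusted p = 0.00984), with differences from 1.03 to 1.21.

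The 2 genes kept close to each other. The log2 ratio of Col4a1 to Col4a2, centred on its own mean, had an SD of 0.18 over the 8 arrays, and its range of 0.50 was narrower than the 2.47 that Col4a1 covered and the 2.19 that Col4a2 covered. Its mean was 0.03 in sh8 and -0.03 in WT arrays. By scan, it was negative on every array of the first (-0.20 to -0.12) and positive on every array of the second (0.05 to 0.30). The genes are neighbours that are read in opposite directions, and in RefSeq (GRCm38.p6) their annotated starts on chromosome 8 lie 21 bases apart. The windows from 250 bases before to 50 bases after each start are printed because both genes share this stretch, with 78 bases in common. Capitals mark the CCAAT box (CCAAT, or ATTGG on the other strand) and the GC box (GGGCGG, or CCGCCC), and each window runs 5′ to 3′ on the strand of its gene, at chr8:11312777-11313076 on the minus strand for Col4a1 and chr8:11312555-11312854 on the plus strand for Col4a2.
Col4a1: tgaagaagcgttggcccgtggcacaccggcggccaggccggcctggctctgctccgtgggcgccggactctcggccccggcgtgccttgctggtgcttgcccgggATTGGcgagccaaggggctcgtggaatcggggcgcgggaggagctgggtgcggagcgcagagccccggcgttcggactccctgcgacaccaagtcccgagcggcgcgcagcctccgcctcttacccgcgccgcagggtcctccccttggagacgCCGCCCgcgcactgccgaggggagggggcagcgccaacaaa
Col4a2: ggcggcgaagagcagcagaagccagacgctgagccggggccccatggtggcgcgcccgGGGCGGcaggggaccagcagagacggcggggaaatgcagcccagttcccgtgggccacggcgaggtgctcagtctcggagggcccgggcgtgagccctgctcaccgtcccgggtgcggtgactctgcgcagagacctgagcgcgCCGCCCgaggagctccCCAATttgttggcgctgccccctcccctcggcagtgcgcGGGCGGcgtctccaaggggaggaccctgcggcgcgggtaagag
The Col4a1 window held 1 CCAAT box and 1 GC box, and that of Col4a2 held 1 CCAAT box and 3 GC boxes, 1 of them in the shared stretch of both windows. No TATA box (TATAAA) and no cyclic AMP response element (TGACGTCA) was in either window, with both strands searched. Of 32851 RefSeq mouse windows of this length, 37.4% held a CCAAT box, 35.7% a GC box, 13.6% the TATAAA letters and 1.79% the TGACGTCA letters. G and C made up 74.0% and 73.7% of the Col4a1 and Col4a2 windows, against a median of 52.7% over all windows. A match describes the letters only and is not evidence that a factor binds there.

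Lamc1 and Lama4 encode the gamma 1 chain, which most laminins share, and the alpha 4 chain, found in laminins of fat, muscle and vessel walls. The Lamc1 level was 3.73, 3.70, 4.04 and 4.34 in sh8 cells at days -2, 0, +2 and +4, against 2.41, 2.51, 2.86 and 2.86 in WT cells. All 4 sh8 arrays lay above all 4 WT arrays. Lamc1 was 2.45-fold higher in sh8 (1.29 ± 0.10 SE, adjusted p = 0.00929), with differences between 1.18 and 1.47 on single days. The Lama4 level was 0.68, 2.28, 2.48 and 2.45 in sh8 cells, against 0.83, 1.75, 2.04 and 2.01 in WT cells. Both lines were lowest at day -2, where sh8 lay below WT, and sh8 lay above WT on the other 3 days. The line difference of Lama4 did not pass (0.31 ± 0.15 SE, 95% interval -0.07 to 0.69, adjusted p = 0.168). The centred log2 ratio of Lama4 to Lamc1 had an SD of 0.76, with a mean of -0.49 in sh8 and 0.49 in WT arrays.

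Other laminin chains did not follow a single course. Lamb3, a laminin beta chain, was 1.58-fold higher in sh8 (0.66 ± 0.14 SE, adjusted p = 0.0324). Lama3, an alpha chain, differed by 0.44 (adjusted p = 0.0525). The beta chains Lamb1 (-0.06) and Lamb2 (0.30) and the alpha chains Lama1 (0.20, well above background on 3 arrays), Lama2 (0.23) and Lama5 (0.06) did not pass, nor did Lamc3 (0.21).

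Nid1 and Nid2 encode nidogens, rod-shaped proteins that bind the gamma 1 chain of laminin and type IV collagen. The Nid2 level was -4.55, -3.31, -2.79 and -2.21 in sh8 cells at days -2, 0, +2 and +4, against -2.15, -1.50, -1.08 and -1.28 in WT cells. All 4 sh8 arrays lay below all 4 WT arrays, with differences of -2.40, -1.82, -1.72 and -0.93 at days -2, 0, +2 and +4. Being lower in sh8 on each of the 4 days was shared by 20.3% of all genes. With normexp background correction the Nid2 difference was -1.48 at day -2 and -1.31 at day 0. Nid2 was 3.29-fold lower in sh8 (-1.72 ± 0.25 SE, adjusted p = 0.0172), and with normexp the fitted difference was -1.25. The Nid1 level was 5.83, 5.81, 5.91 and 5.87 in sh8 cells, against 5.63, 5.96, 5.51 and 5.47 in WT cells. The lines overlapped, and each of the 7 gaps between neighbours in the order of its 8 levels was within the residual SD of 0.18. The line difference of this brightest Nid1 probe did not pass (0.21 ± 0.13 SE, 95% interval -0.12 to 0.55, adjusted p = 0.262). When each probe was tested on its own, the other 2 Nid1 probes differed by 0.46 (adjusted p = 0.0366) and 0.44 (adjusted p = 0.0518), so the Nid1 probes disagreed on the call.

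Hspg2 encodes perlecan, the large heparan sulphate proteoglycan of basement membranes. Its level was 4.13, 4.41, 4.08 and 4.15 in sh8 cells at days -2, 0, +2 and +4, against 3.54, 3.47, 3.04 and 3.14 in WT cells. The 4 sh8 arrays lay above the 4 WT arrays. Hspg2 was 1.86-fold higher in sh8 (0.89 ± 0.12 SE, adjusted p = 0.0150), and its second probe differed by 0.99 (adjusted p = 0.0150). Its promoter window is shown for contrast with the type IV pair, since it held the most GC boxes among the genes with a window, 5, with no CCAAT box, at 70.3% G and C.
Hspg2 (GRCm38.p6, chr4:137468553-137468852, plus strand, GC boxes in capitals): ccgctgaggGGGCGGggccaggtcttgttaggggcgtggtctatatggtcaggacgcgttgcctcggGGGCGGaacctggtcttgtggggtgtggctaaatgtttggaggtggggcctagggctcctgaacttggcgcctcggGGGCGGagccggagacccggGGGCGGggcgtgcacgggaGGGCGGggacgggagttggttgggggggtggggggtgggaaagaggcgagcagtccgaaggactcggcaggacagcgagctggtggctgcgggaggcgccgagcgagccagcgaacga

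Over the basement membrane genes, all sh8 arrays lay above all WT arrays for Col4a2, Lamc1 and Hspg2, and all lay below for Nid2. Among all genes tested, 10.2% had all sh8 arrays above all WT arrays and 7.06% had all below.

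The type VI collagen chains Col6a1, Col6a2 and Col6a3 encode the 3 chains of 1 heterotrimer, and the end of the alpha 3 chain is released as the fragment endotrophin in adipose tissue. The Col6a3 level was 3.10, 4.19, 5.04 and 4.97 in sh8 cells at days -2, 0, +2 and +4, against 1.73, 3.64, 4.18 and 4.53 in WT cells. Sh8 was above WT on each day, by 1.36 at day -2 and by 0.44 at day +4, although the lines overlapped across days. Col6a3 was 1.75-fold higher in sh8 (0.81 ± 0.18 SE, adjusted p = 0.0353).

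Col6a1 had levels of 4.77, 5.55, 5.83 and 5.62 in sh8 cells, against 4.29, 5.19, 5.43 and 5.45 in WT cells. Col6a2 had levels of 1.23, 2.29, 2.49 and 2.41 in sh8 cells, against 0.56, 1.71, 2.10 and 2.27 in WT cells. Both were above WT in sh8 on all 4 days, as were 32.3% of all genes, and the gap at day +4 was 0.17 for Col6a1 and 0.14 for Col6a2. Their line differences just missed the threshold, at 0.35 ± 0.10 SE for Col6a1 (adjusted p = 0.0565) and 0.45 ± 0.13 SE for Col6a2 (adjusted p = 0.0561). Col6a1 passed under 4 of the 19 other settings and Col6a2 under 6.

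Col6a1 and Col6a2 kept close, with an SD of 0.19 for their centred log2 ratio, whereas the ratio of Col6a3 to Col6a1 had an SD of 0.61 and that of Col6a3 to Col6a2 one of 0.45. The ratio of Col6a3 to Col6a1 was lowest on the day -2 array of each line. The promoter windows of Col6a1 and Col6a3 held none of the 4 motifs searched, and each held 3 CG pairs, against 37 in the Col4a1 window. Col6a2 differed from them: 1 of its windows held 3 GC boxes and 16 CG pairs, and the other 1 GC box and 6 CG pairs. The Col6a3 window is shown as an example without a motif and does not stand for all type VI chains.
Col6a3 (GRCm38.p6, chr1:90843922-90844221, minus strand, no motif found): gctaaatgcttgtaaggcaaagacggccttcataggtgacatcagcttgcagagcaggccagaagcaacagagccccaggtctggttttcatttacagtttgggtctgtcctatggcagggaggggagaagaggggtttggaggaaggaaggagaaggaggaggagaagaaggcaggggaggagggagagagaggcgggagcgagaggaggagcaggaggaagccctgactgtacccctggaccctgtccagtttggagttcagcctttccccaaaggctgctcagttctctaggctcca

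**Figure D2:**
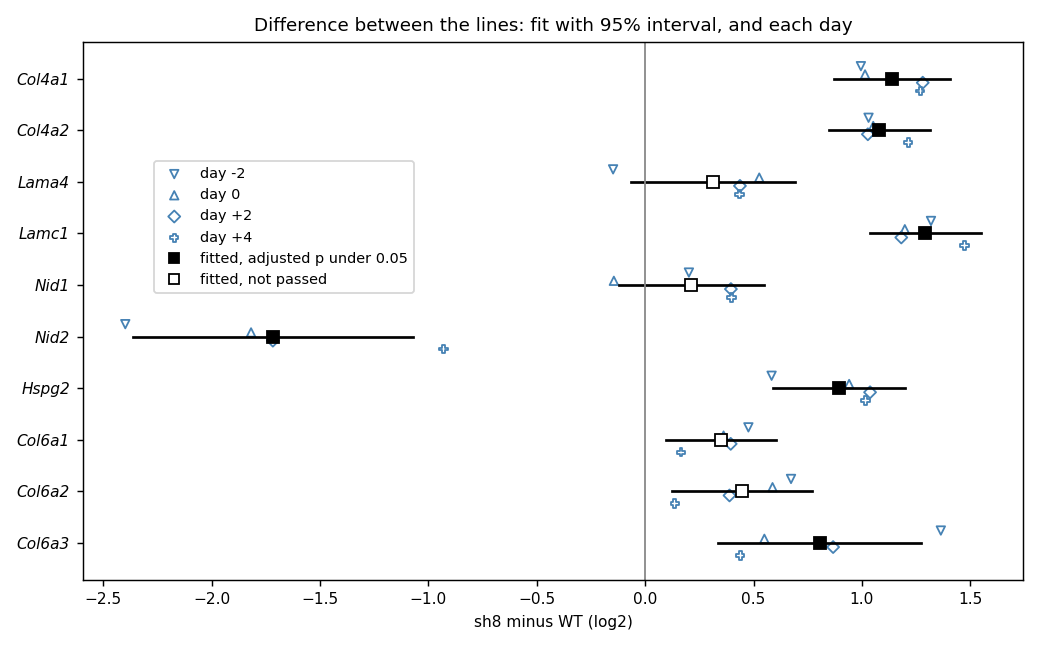
Difference of sh8 minus WT for each gene on the log2 scale, as the fitted value over the 4 days (square, with its 95% interval) and the difference on each day (open symbols). Filled squares have an adjusted p under 0.05. Nid2 alone lies left of 0 with its whole interval, Col4a1, Col4a2 and Lamc1 lie near or above 1, and the differences of the type VI chains are smallest at day +4.

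On single days, a pair of arrays has no test. A difference of at least 1 in the higher direction was seen for Col4a2, Lamc1 and Col6a3 at day -2, where 5.54% of the genes above background reached it, and for Col4a1, Col4a2 and Lamc1 at day 0 (6.92%). At days +2 and +4 it was seen for Col4a1, Col4a2, Lamc1 and Hspg2, with 14.1% and 9.58% of genes. Nid2 was lower by at least 1 at days -2, 0 and +2, which 4.75%, 4.89% and 5.49% of genes were. At day +4 its difference of -0.93 fell short of that size, which 5.23% of genes reached.

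The line differences kept their sign on both scans. On the first scan alone, Lamc1 differed by 1.26, Col4a2 by 1.04, Col4a1 by 1.00, Hspg2 by 0.76 and Nid2 by -2.11, and on the second by 1.33, 1.12, 1.28, 1.03 and -1.32 in the same order of genes. The calls needed most of the arrays. Leaving out any 1 array of days 0, +2 or +4 of either line left 0 of the 10 genes past the threshold. Of all 26746 genes, 77, 0 and 0 passed without days 0, +2 and +4. An unadjusted p under 0.05 was left for 6 to 8 of the 10 genes and for 8724 to 9520 of all genes. Without either array of day -2, 5 of the 10 genes and 15.7% of all genes passed, and Col6a3 did not (0.62, adjusted p = 0.0571). Col6a3 was also lost without the filter on dim probes and with scan in place of day (adjusted p = 0.219). Within the first scan 0 of the 10 genes and 0% of all genes passed, and within the second 4 and 19.2%.

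Between days -2 and 0, as the cells reached confluence on the first scan, limma called 0 of the 10 genes and 0 of all genes after adjustment, while 6 of the 10 and 25.4% of all genes had an unadjusted p under 0.05. The type VI chains and Lama4 had the lowest p of the 10. Col6a3 differed by 1.504 ± 0.26 SE (adjusted p = 0.0720), Lama4 by 1.26 ± 0.21 SE (0.0708), Col6a2 by 1.104 ± 0.18 SE (0.0702) and Col6a1 by 0.84 ± 0.14 SE (0.0708). The difference was positive in both lines for these 4 genes. They passed with normexp background correction, with a filter at 8 of 8 arrays and with a variance trend, where 13.1%, 8.31% and 7.14% of all genes were called. Nid2 differed by 0.94 with a wider error (± 0.35 SE, adjusted p = 0.190), Col4a2 (0.39) and Col4a1 (0.35) by less, and Hspg2 (0.11), Nid1 (0.15) and Lamc1 (0.04) lay close to the median of all genes, 0.08.

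Between days 0 and +2 the cells received the hormones and the scan changed. Col4a1 rose 1.90-fold (0.92 ± 0.15 SE, adjusted p = 0.0276) and the other 9 did not pass, where 9.00% of all genes rose and 2.87% fell, 11.9% in all. Without adjustment, 3 of the 10 and 31.7% of all genes had a p under 0.05. The step of Col4a1 was 1.06 in sh8 and 0.79 in WT cells. Col4a2 differed by 0.57 ± 0.13 SE (adjusted p = 0.0533), with 0.56 in sh8 and 0.58 in WT cells, and Col6a3 by 0.69 ± 0.26 SE (adjusted p = 0.147). Hspg2 (-0.39, adjusted p = 0.191) and Nid1 (-0.17) were the only 2 with a negative difference. The call of Col4a1 was lost when any 1 array of days 0, +2 or +4 was left out, with changes between 0.83 and 1.02 and adjusted p up to 0.145. Among the other laminins, Lama2, the alpha chain of muscle laminin, rose by 1.35 (adjusted p = 0.0356), Lamb3 rose by 1.19 (0.0313), and Lamb2 fell by 1.12 (adjusted p = 0.0393).

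Between days +2 and +4, on the second scan, limma called 0 of the 10 genes, 0 with an unadjusted p under 0.05, and 0 of all genes (5.43% unadjusted). Differences ran from -0.09 (Col6a1) to 0.19 (Nid2).

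**Figure D3:**
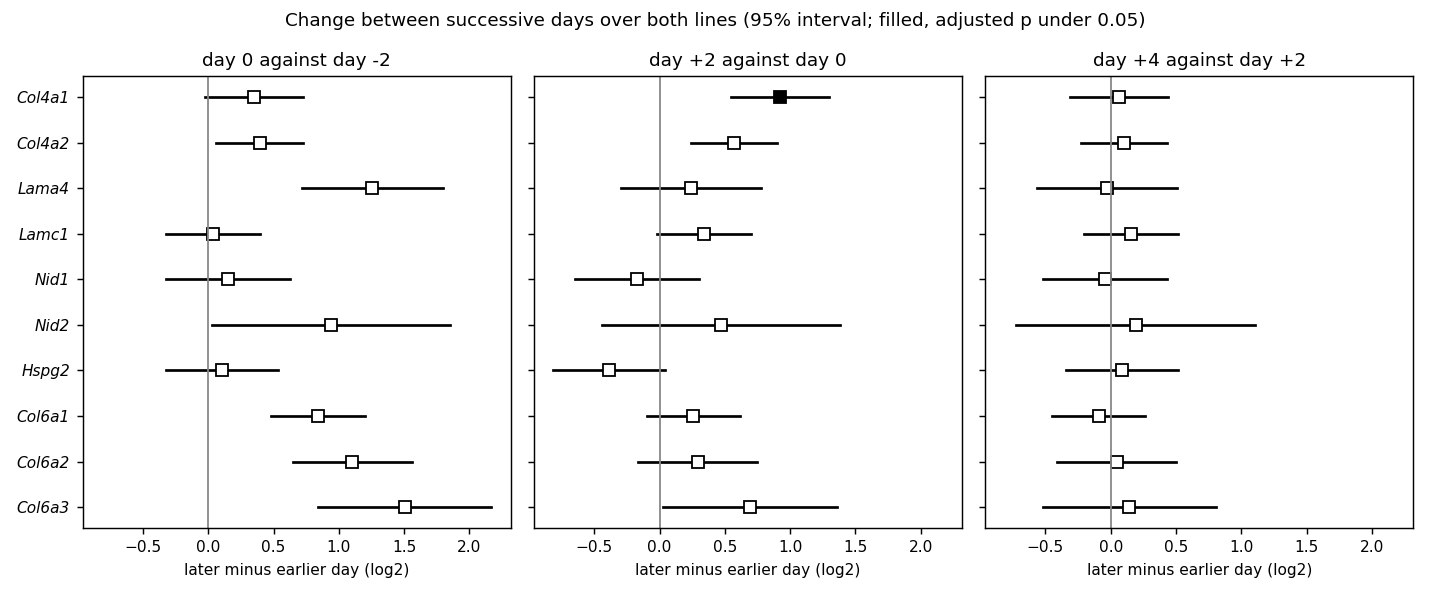
Change between successive days for each gene over both lines, as later minus earlier day on the log2 scale with 95% intervals. The filled square, Col4a1 at day +2 against day 0, is the only change with an adjusted p under 0.05. Lama4, Nid2 and the type VI chains lie farthest right in the first panel, and all intervals in the last panel include 0.

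From day -2 to day +4 as a whole, the sizes differed between lines without a test of each pair. Col6a3 at day +4 was 3.67-fold its day -2 level in sh8 cells and 6.97-fold in WT cells, and Nid2 was 5.04-fold in sh8 and 1.82-fold in WT cells (2.67-fold in sh8 and 1.65-fold in WT cells with normexp). Lama4 was 3.39-fold in sh8 and 2.26-fold in WT cells, and Col4a1 2.77-fold in sh8 and 2.29-fold in WT cells. Nid1 was 1.03-fold in sh8 and 0.90-fold in WT cells (0.94 and 0.80 with normexp). The interaction of line with the days after induction, which tests whether the line difference of days +2 and +4 departed from that of days -2 and 0, called 0 of the 10 genes and 0 of all genes by limma, with 0 of the 10 and 19.9% of all genes at an unadjusted p under 0.05. Its values were 0.78 ± 0.38 SE for Nid2 (95% interval -0.30 to 1.87), 0.37 for Nid1, 0.27 for Col4a1, -0.37 for Col6a2 and -0.30 for Col6a3. The lowest adjusted p was 0.325, for Col6a2. Days +2 and +4 were also the second scan. Neither this interaction nor the changes from day -2 to day +4 can therefore be told apart from the change of scan.

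Across the 8 arrays, levels of a gene can be put in order. Col4a1 was lowest in WT at day -2 and highest in sh8 at day +4, a 5.53-fold range, and its 3 gaps within the residual SD of 0.15 were between sh8 at day -2 and WT at day +2, between WT at days +2 and +4, and between sh8 at days +2 and +4. Lamc1 had the same lowest and highest arrays, with a range of 3.80-fold. Nid2 had the widest range of the 10, 11.1-fold, from sh8 at day -2 to WT at day +2. Nid1 had the narrowest, 1.40-fold.

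The mean pattern of the 7 basement membrane genes, each gene centred on its own 8 arrays, was nearest to that of Ndufaf3, a mitochondrial complex I assembly factor, with a root mean square difference of 0.0708 on the log2 scale among 13773 named genes above background on all arrays. Hsd17b14 (0.0839), Asb1 (0.0855), Cldnd2 (0.0861) and C1d (0.0888) followed. The 7 genes themselves lay farther from their mean, by 0.344 (Lama4) to 1.14 (Nid2). The mean pattern of the 3 type VI chains was nearest to those of Lrrc51 (0.175), Casp1 (0.197), Col18a1 (0.227), Smim22 (0.228) and Cul9 (0.228), while the 3 chains lay 0.0981 (Col6a2), 0.245 (Col6a1) and 0.329 (Col6a3) from their mean. Col18a1 encodes a basement membrane collagen, and the line difference of Col18a1 did not pass (0.44, adjusted p = 0.0980).

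Around these 10 genes, the other components of the basement membrane moved in both directions. Of 27 measured of 30 listed, 9 were higher in sh8 and 4 lower, against 16.7% and 10.2% of all genes, with a median difference of 0.30. Ecm1, a glycoprotein that binds perlecan, was higher by 1.21, whereas Smoc2, a secreted calcium-binding protein, was lower by the fit (-3.47 ± 0.37 SE, adjusted p = 0.0118), well above background on 3 of the 4 sh8 arrays, and Smoc1 was also lower (-0.84), above background on 2 arrays of sh8 and 3 of WT. Fbln1 (2.04), Tinagl1 (1.14), Sparc (0.48) and Agrn (-0.77) also passed and are named after their values were seen. Between days 0 and +2, 7 of the 27 rose and 2 fell, against 9.00% and 2.87% of all genes. Among them, Ecm1 rose by 1.17 (adjusted p = 0.0218). Of the other type IV collagen chains, Col4a5 fell by 1.31 (adjusted p = 0.0177). Col4a3 (1.60, adjusted p = 0.0331), Col4a4 (0.77, 0.0329) and Col4a6 (0.60, 0.0418) rose.

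Interstitial partners of type VI collagen numbered 8 measured of 12 listed, 3 of them higher and 1 lower in sh8, against 16.7% and 10.2% of all genes. Vwa1, a protein that binds perlecan and type VI collagen, was higher by 0.74 (above background on 3 of the 4 WT arrays), Matn2 by 0.47 and Col14a1 by 0.47, although a second Col14a1 probe differed by 0.04. Dcn, the proteoglycan decorin, which binds type VI collagen, was 2.07-fold lower (-1.05 ± 0.22 SE, adjusted p = 0.0308).

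Receptors split as well, with 7 of 20 measured (22 listed) higher in sh8 and 3 lower, against 16.7% and 10.2% of all genes. Itga7 and Itga3, alpha chains of laminin-binding integrins, were higher by 1.15 and 0.80. Sgcb, a sarcoglycan of the dystroglycan complex (-1.04), and Antxr1, a receptor that binds type VI collagen (-1.11), were lower. Sdc1 (0.82) and Sdc4 (1.42), both syndecan proteoglycans, rose at day +2 against day 0, and Bcam, a laminin receptor above background on no array of day 0, was at least 1.93-fold higher at day +2.

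Of 28 genes for collagen and heparan sulphate synthesis, 8 were higher in sh8 and 0 lower, against 16.7% and 10.2% of all genes. Without adjustment, 14 of the 28 and 43.7% of all genes had a p under 0.05. The median difference was 0.27, against 0.14 over all genes. Plod2, which hydroxylates collagen lysines, was 2.48-fold higher (1.31 ± 0.10 SE, adjusted p = 0.00915). Ero1a, an oxidase of the endoplasmic reticulum, was higher by 1.35, P4hb, a subunit of collagen prolyl hydroxylase, by 0.70, and Mia3, which helps load collagen into transport vesicles, by 0.68. The collagen chaperone Serpinh1 differed by 0.05 and did not pass. Plod2 also rose at day +2 against day 0, by 1.33 (adjusted p = 0.0127).

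Proteases and their inhibitors had 5 of 17 measured (20 listed) higher in sh8 and 4 lower, against 16.7% and 10.2% of all genes. Timp3, a matrix-bound inhibitor of metalloproteinases, was 5.66-fold higher (2.50 ± 0.26 SE, adjusted p = 0.0117), and Plau, urokinase, was higher by 0.84. The membrane metalloproteinase Mmp14 was 2.26-fold lower (-1.18 ± 0.10 SE, adjusted p = 0.00997), and Adamts1 was lower too (-1.52). At day +2 against day 0, 5 fell and 1 rose, against 2.87% and 9.00% of all genes. Mmp11 fell by 2.27, Mmp14 fell by 1.48, Mmp3 fell by 1.43, and Timp4 rose by 1.41.

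**Figure D4:**
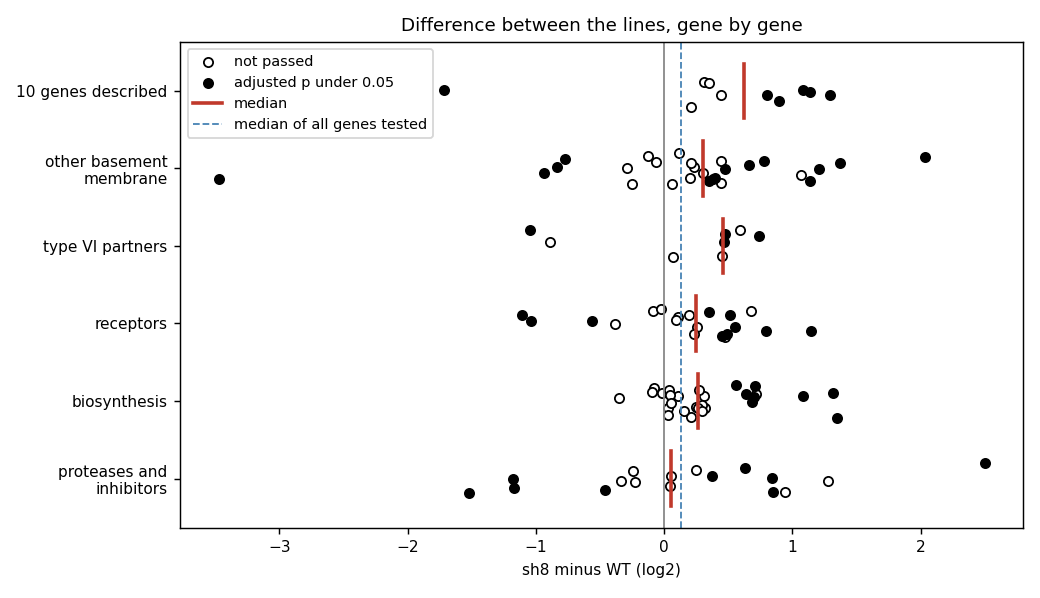
Difference of sh8 minus WT on the log2 scale for each measured gene of the 10 described and of 5 lists of related genes, with filled points for an adjusted p under 0.05, red bars for the median of each list and a dashed line for the median of all genes. The 10 genes have a median of 0.63, synthesis genes have 8 filled points, all right of 0, and each of the other 4 lists has filled points on both sides.

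Markers of other cells moved with these comparisons. For scale, 16.7% of all genes were higher and 10.2% lower in sh8, and 9.00% rose and 2.87% fell at day +2 against day 0. Of 15 lung epithelium markers, 5 to 7 were well above background on the first scan and 14 or 15 on the second, and 11 rose at day +2 against day 0, Sftpc, a surfactant protein, by at least 117-fold. In sh8 against WT, 3 were higher (Cyp2f2 1.58, Sftpa1 0.52, Sftpd 0.72 with 0.32 on a second probe) and 1 lower (Lamp3, -0.66). Their summed level, in multiples of the array's 75th percentile, was 8.80 to 10.7 in sh8 and 10.8 to 11.2 in WT arrays on the first scan, and 28.5 to 35.4 in sh8 and 22.7 to 29.0 in WT arrays on the second. The brightest of the 15 was Lamp3 or Cyp2f2 on every array. That of 15 endothelial markers was 8.97 to 10.0 in sh8 and 6.03 to 7.002 in WT arrays on the first scan, and 13.4 to 16.2 in sh8 and 9.99 to 12.04 in WT arrays on the second. Flt1 (1.61), Pecam1 (0.71), Egfl7 (0.86) and Kdr (0.43, with -0.16 on a second probe) were higher in sh8 and 8 of the 15 endothelial markers rose at day +2 against day 0.

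Of 14 macrophage markers, 7 were higher in sh8 and 0 lower, with a summed level of 9.44 to 10.8 in sh8 and 6.79 to 8.01 in WT arrays over both scans. At day +2 against day 0, 7 of the 14 rose and 1 fell (Aif1, -0.67), against 9.00% and 2.87% of all genes. Laptm5, Lyz2, Cd52 and Tyrobp, among those that rose, were above background on no array of day 0. Of 7 smooth muscle and pericyte markers measured, only Notch3 (1.65) passed in sh8 against WT. At day +2 against day 0, 2 of the 7 rose and 1 fell. Notch3 rose by 1.51, Cnn1, above background on no array of day 0, was at least 2.97-fold higher, and Acta2 fell by 3.10. Of 16 fat cell markers, 4 were lower in sh8, namely Fabp4 (-1.53), Pparg (-1.59), Lpl (-1.39) and Plin4 (-2.16), and 0 were higher. Their summed level was 20.4 to 48.7 in sh8 and 47.5 to 99.4 in WT arrays. Of 14 preadipocyte and fibroblast markers, 3 were higher, among them Thy1 (1.21) and Ly6a (1.45), and 3 lower, among them Pdgfrb (-0.65) and Prrx1 (-0.62). In these bulk samples fewer cells of a type and less RNA per cell cannot be told apart. The part of the lung, endothelial, macrophage and other markers in the line differences and in the rise of Col4a1 at day +2 was not tested.

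**Figure D5:**
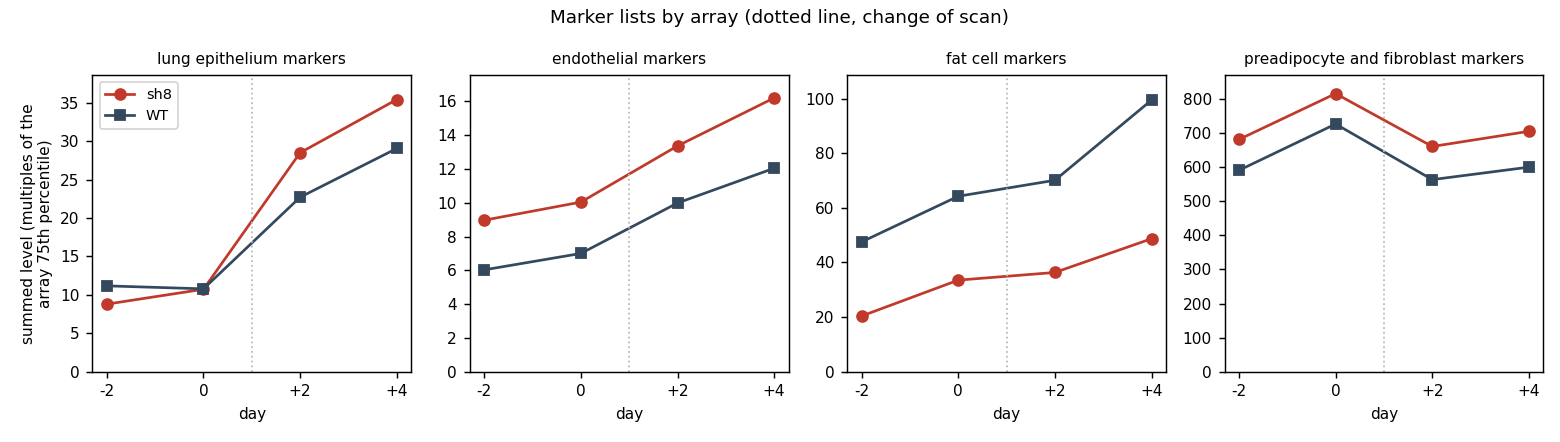
Summed level of 4 marker lists on each array, in multiples of the array's 75th percentile, against day, with sh8 in red circles and WT in dark squares and a dotted line at the change of scan. Lung markers lie between 8.80 and 11.2 before the change and between 22.7 and 35.4 after it, and fat cell markers lie lower in sh8 on every day.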

How the data were processed

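RNA of 3T3-L1 cells was labelled with Cy3 (1 µg of RNA, per the labels' protocols) and read on 8 one-colour Agilent arrays, although the series text names another maker. Per the file headers, the authors extracted the spot intensities with Agilent Feature Extraction 11.0.1.1 against build mm9. The deposited gProcessedSignal, a background-corrected intensity, was the starting point. The authors also deposited a log2 value table of the same arrays, with column medians of 6.39, no centring and the same direction (r from 0.994 to 1.00), and the sources used here do not say how.

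Of 44397 spots, 1377 controls were left out. Repeat spots were averaged into 39429 probes, 46 were left out for outlier flags, and RefSeq accessions gave 27207 a symbol (RefSeq of GRCm38.p6, for names only) and 12176 none. The log2 intensity minus each array's 75th percentile was used, for probes well above background on at least 2 arrays, with the brightest probe per gene. limma 3.58.1 (R 4.3.3) fitted day as 4 levels plus line (3 residual degrees of freedom), or with a line by period term (2), with Benjamini-Hochberg adjustment over 26746 genes and a threshold of 0.05. The procedure was run on simulated data with independent errors and 200 changed genes, which does not give its error rates on these arrays. "At least N-fold" sets the bright group's mean against the dim group's mean of a floor, which is the lowest signal well above background on an array or the dim gene's own signal where that was higher. From each list the 4 genes with the lowest p that passed were named, or up to 2 if none passed, and the 5 genes nearest in pattern. One gene that this rule names is not reported here. The genes, lists and tests were chosen with earlier results of these data known. Promoter windows are RefSeq's (7 of the 10 genes, 8 windows, with none for Lama4, Lamc1 and Nid2). Figures used matplotlib 3.10.9 and pandas 2.3.3.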

Additional observations from a re-analysis of the deposited data

How the results depend on the processing

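The planned normexp correction on mean signals was not run, and normexp on median signals, chosen after seeing the data, took its place. For sh8 against WT, 6 of the 10 genes and 26.8% of all genes passed. Counts of the 10 under other settings follow, with the share of all genes in brackets. It was 7 under quantile scaling (19.5%) and the authors' values (20.1%). It was 8 under normexp (32.4%), the percentile over probes above background on all arrays (31.6%), the filter at 8 of 8 arrays (40.5%) and a variance trend (31.3%). Without a filter (16.2%) and with scan as block (18.9%) it was 5, and with the mean of probes 6 (26.1%). On the second scan alone it was 4 (19.2%) and on the first scan alone 0 (0%). Leaving out 1 array gave 0 to 5, with 0% to 15.7% of all genes. All 10 genes kept their direction in this comparison under every setting run. For day 0 against day -2, 0 passed, and 4 did with normexp, the filter at 8 of 8 arrays or a variance trend (leaving out 1 array, 0). For day +2 against day 0, 1 passed, 2 did with the same 3 settings, and 0 to 1 did leaving out 1 array. Of all genes, 11.9% were called at day +2 in the main fit, and 9.66%, 12.9% and 13.2% under those 3 settings. For day +4 against day +2 and for the interaction, 0 of the 10 passed under every setting. The interaction called up to 5.66% of all genes, with the filter at 8 of 8 arrays. Changes that did not pass turned sign near 0 in some settings. Without a filter 32820 genes were tested, with the filter at 8 of 8 arrays 19961. No paired analysis was possible because the groups share only replicate number 1, other than by day, which the fit already holds as a term and which sets the sh8 array of each day against the WT array.

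Among day 0 against day -2, Lamc1 was -0.000399 with normexp and Hspg2 -0.017 with the mean of probes. Among day +4 against day +2, Col4a1, Col6a2 and Hspg2 were -0.027, -0.00690 and -0.015 with quantile scaling and -0.027, -0.00685 and -0.016 with the authors' values. Leaving out 1 array gave, for day 0 against day -2, -0.10 to 0.31 for Hspg2, -0.028 to 0.099 for Lamc1 and -0.085 to 0.39 for Nid1, and for day +2 against day 0, -0.41 to 0.065 for Nid1. For day +4 against day +2 it gave -0.031 to 0.16 for Col4a1, -0.22 to 0.030 for Col6a1, -0.16 to 0.25 for Col6a2, -0.10 to 0.39 for Col6a3, -0.00735 to 0.18 for Hspg2, -0.11 to 0.052 for Lama4, -0.17 to 0.082 for Nid1 and -0.34 to 0.71 for Nid2. For the interaction it gave -0.014 to 0.17 for Col4a2, -0.71 to 0.10 for Col6a3, -0.090 to 0.58 for Lama4 and -0.077 to 0.22 for Lamc1. The cause of these sign changes was not tested. On single days, the Nid2 difference was -1.48 at day -2 and -1.31 at day 0 with normexp. All 10 genes were above background on every array, and the size of the Nid2 difference, at the lowest levels of the 10, moved with the background correction.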
